A study of Mus musculus with 23 samples.

Results

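The miR-34 and miR-449 family was followed in sorted mouse lung cells before and after birth. The family was taken as 7 mature microRNAs listed by identifier, and 6 of the 7 are described here out of 602 microRNAs in the deposited table. No rule on their values picked them, but the list was made with earlier results of these data known. They are miR-34a-5p (MIMAT0000542), miR-34b-5p (MIMAT0000382), miR-34b-3p (MIMAT0004581), miR-34c-5p (MIMAT0000381), miR-449a-5p (MIMAT0001542) and miR-449c-5p (MIMAT0003460). The seventh, miR-34c-3p, was not analysed here. All 6 were above background in at least 2 samples and were tested among 302 such microRNAs. The 23 samples were sorted from lungs of wild-type (WT) C57BL6 mice that received no treatment named in the labels. Type II pneumocytes (AT2), sorted on CD326, gave 13 samples, with 3 at postnatal day 28 (P28) and 2 at each of E16.5 and E18.5 (days of embryonic life), P1, P7 and P14. Endothelial cells (EC), sorted on CD31, gave 10 samples, with 1 each at E18.5 and P1 and 2 at each other stage. The labels do not state how many mice a sample holds or whether replicates were separate animals. The p-values therefore reflect only how far these samples differ from one another, part of which may be technical.

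The members come from a single-gene locus (Mir34a), a pair of hairpins (Mir34b and Mir34c) and the Mir449 cluster, and their 5p arms share a seed, the bases by which a microRNA pairs with its target messenger RNAs. In airway and other ciliated epithelia the Mir34b/c and Mir449 loci are strongly expressed in multiciliated cells, and mice that lack the family have too few and too short motile cilia. Among the targets is Ccp110, a brake on the docking of basal bodies from which cilia grow. Mir34a is expressed in many tissues and is best known as a target of the transcription factor p53. CD326 (EpCAM) is carried by lung epithelium in general, airway cells included, so a CD326 sort is not limited to type II cells. In sorted bulk samples, a change in the share of cells that express a microRNA and a change in the level per cell cannot be told apart.

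The mature sequences are shown because the shared seed is what joins these loci into a family. They are RefSeq sequences (GRCm38.p6), found for 5 of the 6 members, 5′ to 3′, with the seed (bases 2 to 8) in capitals.
miR-34a-5p: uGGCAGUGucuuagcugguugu
miR-34b-5p: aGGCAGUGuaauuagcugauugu
miR-449a-5p: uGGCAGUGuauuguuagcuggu
miR-449c-5p: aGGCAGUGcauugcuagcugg
miR-34b-3p: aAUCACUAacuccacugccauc
The 4 printed 5p arms had the same seed, GGCAGUG, which occurred in 4 of the 1679 mature mouse microRNAs of the RefSeq table, these 4. No sequence was found there for miR-34c-5p, so this count does not cover all members. Compared position by position without gaps, they differed to unequal degrees beyond the seed. miR-449a-5p and miR-449c-5p were identical at 18 of 21 positions counted from the 5′ end, and miR-34a-5p and miR-449a-5p at 15 of 22. miR-34b-5p matched miR-34a-5p at 11 of 22 positions and miR-449a-5p at 10 of 22. miR-34b-3p had another seed, AUCACUA, and is the opposite arm of the hairpin that gives miR-34b-5p, as the Mir34b hairpin shows with both arms in capitals.
Mir34b hairpin: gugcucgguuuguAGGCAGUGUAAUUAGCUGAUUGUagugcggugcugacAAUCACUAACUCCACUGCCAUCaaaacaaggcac

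The hairpins lie at 3 places in the genome (GRCm38.p6, RefSeq). Mir34a is at chr4:150068454-150068555 on the plus strand, within the span of no other gene of the table. Mir34b is at chr9:51103562-51103645 and Mir34c at chr9:51103034-51103110, both on the minus strand, with 451 bases between them. Both lie within the spans of the overlapping protein-coding genes Btg4 (chr9:51102147-51119924) and Hoatz (chr9:51081310-51105834). Mir449c (chr13:113035983-113036091) and Mir449a (chr13:113037534-113037624) lie on the plus strand, 1442 bases apart, within the span of Cdc20b (chr13:113034975-113121019). The table gives gene spans, so whether a hairpin is exonic or intronic was not read from it.

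The values are nCounter probe counts multiplied by 1 factor per sample, called scaled values here. Total microRNA counts ran from 26640 to 571715 per sample. The factors ran from 0.296 to 7.93, so background was raised unequally: the limit (mean plus 2 SD of 8 low control rows) lay between 6.16 and 95.1 on the scaled values. AT2 P28 replicate 1 had the lowest total and a limit of only 1 count, and endothelial samples had limits of 14.4 to 95.1. Probes can differ in efficiency, so the level of one member is not set against that of another except as a ratio followed over samples. The microRNA rows carry identifiers without names, so lists of cell type microRNAs and of p53 targets could not be matched (0 matched), and the labelled cell types were not checked against markers.

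In AT2 samples the products of the Mir34b/c locus rose after birth. miR-34b-5p was 38.4 and 16.4 at E16.5, and 30.7 and 49.6 at E18.5, the last of these below that sample's limit. At P1 it was 270.0 and 242.5, and at P7 421.3 and 467.6. At P14 it was 246.5 and 555.8, and at P28 498.1, 1434 and 1066. All 9 postnatal samples were above all 4 embryonic ones, and the late samples (P7, P14 and P28) did not overlap the early ones (E16.5 and E18.5). The late minus early difference was 4.04 ± 0.55 (SE, n = 7 and 4) in log2(value + 1), a 16.5-fold difference on that scale (limma, Benjamini-Hochberg adjusted p = 8.06e-06). Among all 302 tested microRNAs 11.3% were called higher late in AT2 and 40.1% lower, with a median difference of -0.64. Of the 6 members 3 were called higher and 0 lower. The split of all calls was 34 higher and 121 lower, against 77 and 48 under the median shift, 62 and 65 under quantile normalization and 20 and 113 when scaled to the microRNA total, while the same 3 members were called higher under each.

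miR-34b-3p, the opposite arm, rose with it. It was 25.6 and 16.4 at E16.5, 22.7 and 47.1 at E18.5, and 68.4 and 45.7 at P1. It then was 107.6 and 120.3 at P7, 80.9 and 144.9 at P14, and 193.3, 374.3 and 205.1 at P28. The late samples again lay above all early ones, while 1 of the P1 values lay within the embryonic range. Late and early differed by 2.44 ± 0.48 (SE), or 5.41-fold (limma adjusted p = 0.000331). The 3p arm was at 0.189 to 0.388 of the 5p value in every AT2 sample from P1 to P28. At E16.5 and E18.5, where both arms were near background, that ratio was 0.667 to 1. Within each title prefix of the samples, which the labels do not explain, late was above early as well. The difference was 3.94 and 4.34 for miR-34b-5p and 2.38 and 2.65 for miR-34b-3p in the 2 prefixes.

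miR-34c-5p, from the neighbouring hairpin, was either near its lowest possible count or high, with no value in between. At E16.5 it was set to 1 in both AT2 samples, and at E18.5 it was 1.14 and 2.48, which is 1 count in each. At P1 it was 1025 and 888.7 (885 and 2236 counts). At P7 it was 1471 and 1397, at P14 1.26 and 1592, and at P28 892.1, 2349 and 2180. The 8 high samples held 120 to 5361 counts, and the remaining 5 AT2 samples and all 10 EC samples held 1 or 2, so the groups overlapped through AT2 P14 replicate 1 alone. The late minus early difference was 7.81 ± 1.05 (SE) in log2(value + 1) (limma adjusted p = 6.48e-06). Its size depends on values at 1 count, and miR-34c-5p was admitted to testing through postnatal AT2 samples alone. With each early sample set to its background limit the late geometric mean was at least 25.3-fold higher, and without AT2 P14 replicate 1 the fitted difference was 9.38.

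**Figure D1:**
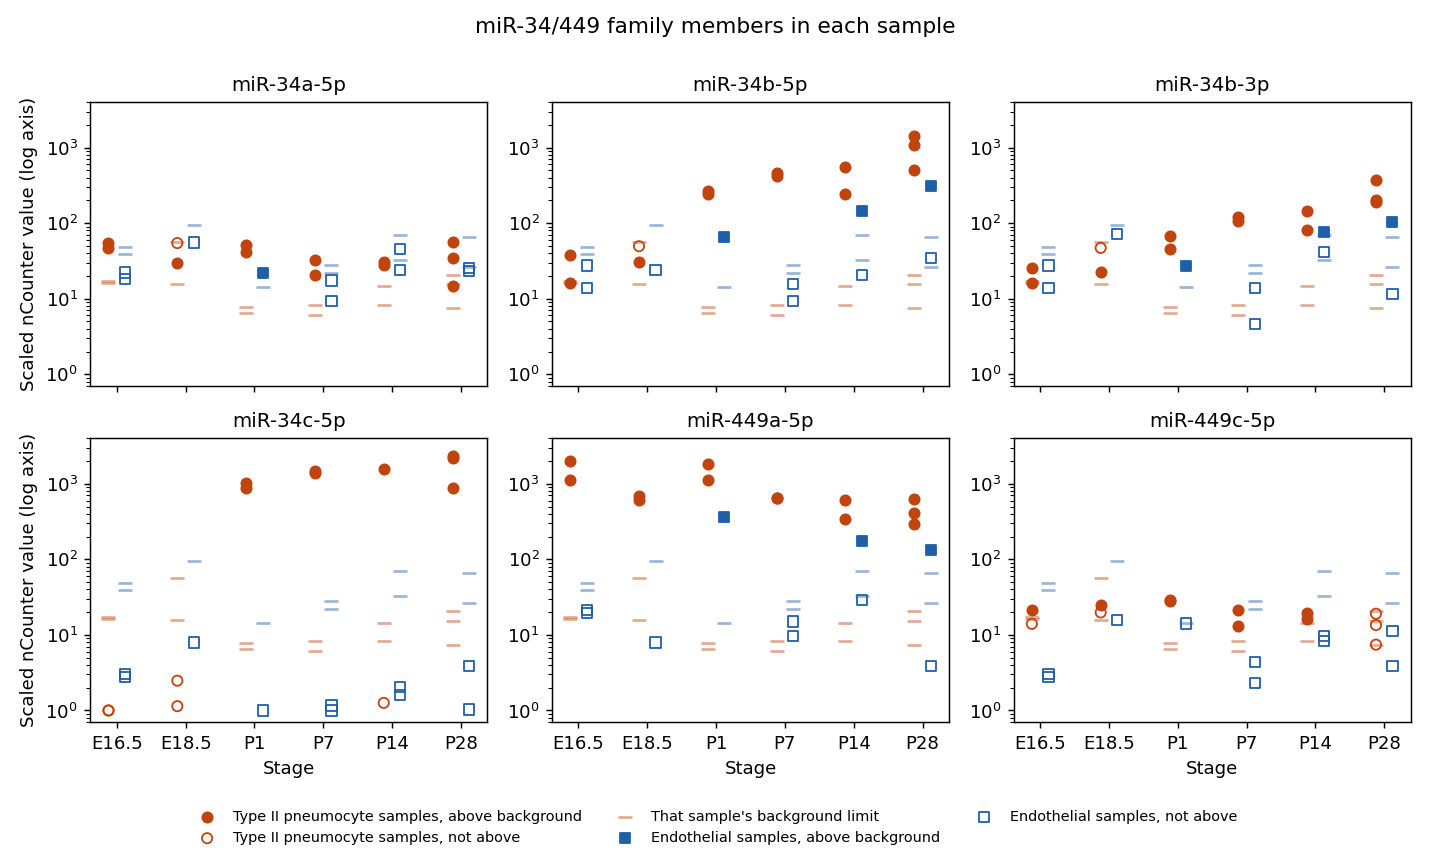
Scaled nCounter value (log axis) of each of the 6 members in each sample by stage, with type II pneumocyte samples as circles and endothelial samples as squares. Filled symbols are above that sample's background limit, drawn as a short bar. miR-34b-5p climbs from 16.4 to 49.6 in the embryonic type II samples to 498.1 to 1434 at P28, miR-34c-5p is either at 1.00 to 2.48 or at 888.7 to 2349, and miR-449a-5p is above background in all 13.

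The low state of miR-34c-5p was below ordinary background. In the 15 low samples it stood at 1 or 2 counts, while the control rows averaged 4.12 to 17.2 counts and the median of all 602 microRNA probes was 6 to 17 counts. Only 5 to 53 of the 602 probes, this one included, were as low in those samples. One other probe, MIMAT0003168, was likewise at 2 counts or fewer in most samples and above background in at least 5. The AT2 P14 pair shows the contrast within 1 stage. Replicate 1 had miR-34b-5p at 246.5 and miR-34b-3p at 80.9, like the P1 to P14 samples, with miR-34c-5p at 1 count, whereas replicate 2 had 5361 counts. Whether a subtraction or a minimum was applied to this probe before deposit was not tested, so a count of 1 is given as listed and not as a level.

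**Figure D2:**
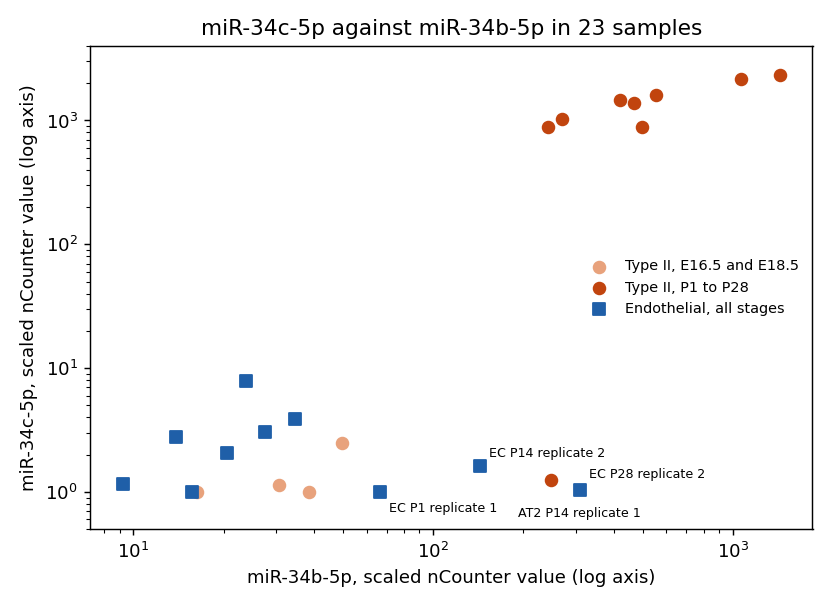
miR-34c-5p against miR-34b-5p in all 23 samples, both as scaled nCounter values on log axes. The 8 samples at the top right are postnatal type II samples with miR-34c-5p at 888.7 to 2349, and AT2 P14 replicate 1 and 3 endothelial samples have miR-34b-5p at 66.6 to 308.3 with miR-34c-5p at 1.00 to 1.61.

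Among the 8 high samples the ratio of miR-34c-5p to miR-34b-5p was lower at each later stage. The ratio was 3.80 and 3.67 at P1, 3.49 and 2.99 at P7, 2.86 in the one P14 sample, and 1.79, 1.64 and 2.04 at P28. No stage overlapped the next. This ratio needs no scaling factor, but it was not tested, since the order was seen in the values.

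The step at birth was the only one between neighbouring stages with a member past the threshold. From E18.5 to P1 miR-34c-5p rose by 8.45 ± 1.66 (SE) in log2(value + 1) (limma adjusted p = 0.00809), where 2.65% of the 302 were called higher (8 against 18 lower, but 22 against 7 under the median shift, 13 against 8 under quantile normalization and 2 against 18 when scaled to the microRNA total). miR-34b-5p differed by 2.68 ± 0.88 (SE) and missed the threshold (limma adjusted p = 0.0578), while edgeR's quasi-likelihood test on the recovered counts called it (adjusted p = 0.0411). The E18.5 and P1 AT2 samples have different title prefixes. With the prefix as a covariate the miR-34b-5p difference fell to 0.79 (limma adjusted p = 0.708), and miR-34c-5p was no longer called (8.66, adjusted p = 0.150). That covariate is estimated only in AT2 P28, EC P14 and EC P28, the groups that hold both prefixes. By prefix, miR-34b-5p there was 498.1 and 1434 against 1066 at AT2 P28, 20.6 against 143.2 at EC P14, and 34.7 against 308.3 at EC P28. The AT2 samples at E18.5 and P1 do not inform it, so the fit cannot say whether the prefix shaped this step. Nor was miR-34c-5p called without AT2 E18.5 replicate 2 (0.0632) or without AT2 P1 replicate 2 (0.0515). In the other 4 steps limma and edgeR each called 0 of 6 members. At an unadjusted p under 0.05 limma had 1 member in P7 to P14 and 1 in P14 to P28. Over all 302 it had 22 and 55 there. Both members were miR-34c-5p with its P14 value of 1 count, and edgeR had 0 members in each of the 4 steps.

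Over the 6 stages a moderated F-test in AT2 called the same locus only. miR-34c-5p (limma adjusted p = 5.4e-05), miR-34b-5p (0.000199) and miR-34b-3p (0.00353) passed, against 49.0% of all 302. miR-34a-5p, miR-449a-5p and miR-449c-5p did not (0.486, 0.331 and 0.412).

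In the Mir449 cluster, miR-449a-5p was above background already at E16.5. miR-449a-5p was 1991 and 1137 at E16.5 and 698.0 and 607.1 at E18.5. At P1 it was 1824 and 1126, and at P7 654.9 and 639.2. At P14 it was 345.1 and 606.8, and at P28 289.9, 627.1 and 413.8. All 13 AT2 samples had it above background, and it made up 0.0843% to 1.19% of a sample's microRNA counts. Its highest values were at E16.5 and P1, and 3 of the 7 late samples lay between 627.1 and 654.9, within the early range. The remaining late samples, at 289.9 to 606.8, lay below all early ones, the lowest of which was 607.1. Late minus early gave -0.98 ± 0.63 (SE) and did not pass (limma adjusted p = 0.196). The call moved with the setting although the difference stayed at -0.98. It was called when all values were raised to the highest background limit (limma adjusted p = 0.0118) or when 3 endothelial samples were left out. Endothelial samples are not in this contrast, but the fit takes its spread from all samples. With each sample shifted to a common median the difference was -0.10.

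miR-449c-5p, from the same cluster, stayed near background. In AT2 it ranged from 7.43 to 29.0 with a median of 19.6 and was above the limit in 8 of 13 samples. It was highest at P1 (29.0 and 27.8) and not above the limit in any of the 3 P28 samples. Late and early differed by -0.32 ± 0.34 (SE, limma adjusted p = 0.428), and its direction turned under 4 of 12 alternative settings. The ratio of miR-449c-5p to miR-449a-5p was 0.0107 to 0.0476 over the 13 samples.

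miR-34a-5p was low in AT2. At E16.5 it was 46.2 and 54.5, at E18.5 29.6 and 54.5, and at P1 52.1 and 42.1. At P7 it was 32.8 and 20.6, at P14 30.3 and 27.9, and at P28 14.9, 57.01 and 34.6. Both E16.5 and both P1 samples lay above all P7 and P14 samples, but the early and late groups overlapped, and the late minus early difference of -0.63 ± 0.34 (SE) did not pass (limma adjusted p = 0.129). The direction turned under 3 of 12 alternative settings.

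Set within single samples, where the scaling factor cancels, miR-34b-5p was higher relative to miR-449a-5p late than early. The ratio of miR-34b-5p to miR-449a-5p in AT2 was 0.0193 and 0.0144 at E16.5 and 0.0440 and 0.0816 at E18.5. It was 0.148 and 0.215 at P1, 0.643 and 0.731 at P7, 0.714 and 0.916 at P14, and 1.72, 2.29 and 2.58 at P28. The late ratios did not overlap the early ones. Only the change of the ratio over samples is read here, since the probes may differ in efficiency. On log2(value + 1), the ratio was -4.94 ± 1.12 (SD, n = 4) early and 0.23 ± 0.85 (SD, n = 7) late, a difference of 5.17, or 36.0-fold. A two-sided exact permutation test gave p = 0.00303, the smallest that 330 splits allow, and 0.00455 after adjustment over 3 ratios. The ratio of miR-34b-5p to miR-34a-5p rose too, by 4.77 (the same exact p, adjusted 0.00455), from 0.300 to 1.04 early to 8.13 to 33.5 late. The ratio of miR-34a-5p to miR-449a-5p did not pass (difference 0.40, exact permutation p = 0.355, adjusted 0.355). The early miR-34b-5p values were near background, and the early ratios hold part of that background. With values raised to the common limit the first 2 differences were 3.60 and 2.58.

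**Figure D3:**
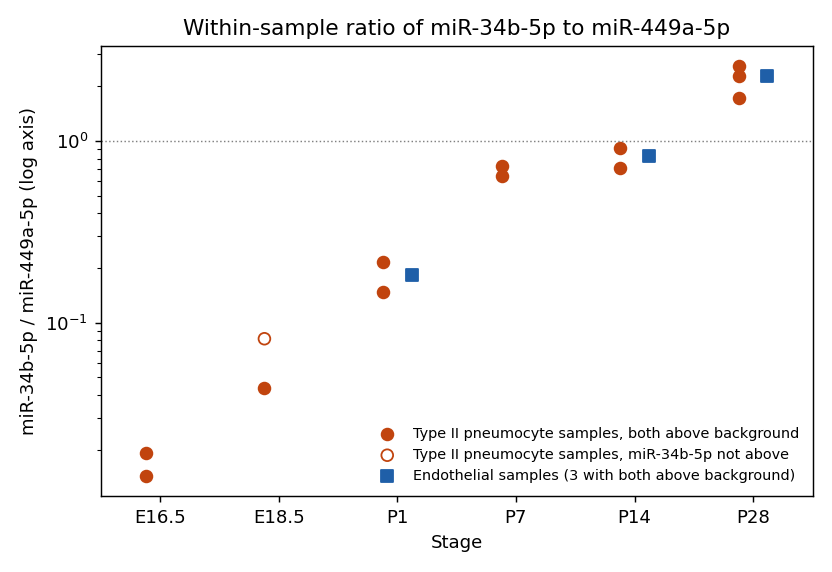
Ratio of miR-34b-5p to miR-449a-5p within each sample (log axis) by stage, for the 13 type II samples (circles, open where miR-34b-5p was not above background) and the 3 endothelial samples in which both were above background (squares). The type II ratio climbs from 0.0144 at the lowest E16.5 sample to 2.58 at P28, and the endothelial values of 0.182, 0.832 and 2.29 lie within or beside the type II values of their stage.

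Across all stages, 5 of the 6 members were called higher in AT2 than in EC, where 19.5% of the 302 were, and the median difference over all 302 was -0.43. The background depends on the scaling: 59 microRNAs were called higher and 144 lower, but 88 and 102 under the median shift, 89 and 90 under quantile normalization, and 37.1% and 13.9% of the 302 when scaled to the microRNA total. Under each of these 3 scalings 6 of the 6 members were called higher. The difference was 4.44 ± 0.44 (SE) in log2(value + 1) for miR-449a-5p (limma adjusted p = 2.15e-07) and 2.32 ± 0.38 for miR-34b-5p (4.62e-05). It was 4.85 ± 0.72 for miR-34c-5p (1.6e-05), 1.22 ± 0.33 for miR-34b-3p (0.00342) and 1.24 ± 0.24 for miR-449c-5p (0.000181). miR-34a-5p differed by 0.50 ± 0.24 and missed the threshold (limma adjusted p = 0.0691), but 5 of 12 settings called it, edgeR and the 3 other scalings among them. No member was above background in more than 3 of 10 EC samples. miR-34c-5p and miR-449c-5p were above it in 8 of 13 AT2 and 0 of 10 EC samples. They were thus admitted to testing through AT2 alone, the group where they are high, and their calls are no separate support. With EC samples at or below their limit set to it, AT2 was at least 9.80-fold higher for miR-449a-5p, at least 3.15-fold for miR-34b-5p and at least 2.49-fold for miR-34c-5p. The bound was under 1 for miR-34a-5p and miR-449c-5p. Within the 9 title identifiers that both cell types carry, AT2 was higher in 9 of 9 for miR-34b-5p, miR-449a-5p and miR-449c-5p. It was higher in 7 of 9 for miR-34a-5p and miR-34b-3p, and in 5 of 9 for miR-34c-5p. For miR-449c-5p the EC limit exceeded the AT2 value in all pairs but that at P1. For miR-34b-5p the limit was 127% to 310% of the AT2 value in the embryonic pairs. The miR-34c-5p pairs not higher in AT2 held 1 count in both samples. The share of the 302 that was higher within these pairs was not computed.

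**Figure D4:**
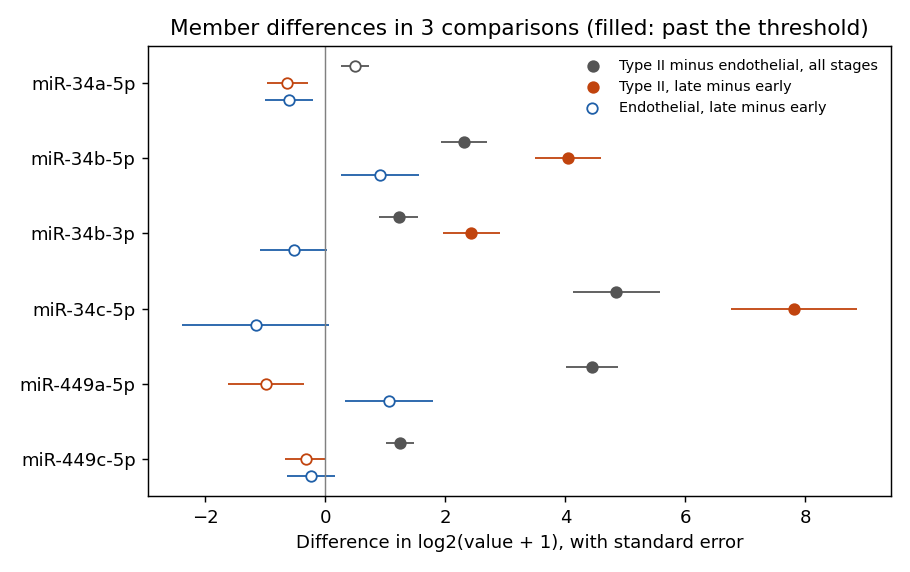
Difference in log2(value + 1) with its standard error for the 6 members: type II minus endothelial over all stages (grey), late minus early in type II samples (orange) and late minus early in endothelial samples (blue). Filled points pass the threshold of 0.05, and only the 3 Mir34b/c products pass in the late minus early comparison of type II samples.

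The family signal in EC came from 3 of the 10 samples. miR-449a-5p was 365.2 in EC P1 replicate 1, 172.2 in EC P14 replicate 2 and 134.6 in EC P28 replicate 2, and 3.86 to 28.8 in the other 7, none above their limits. miR-34b-5p was 66.6, 143.2 and 308.3 in the 3 and 9.25 to 34.7 in the other 7. The same 3 EC samples were the only ones of the 10 with miR-34b-3p above background, at 26.8, 77.2 and 104.8. All 3 carry the same title prefix, which no other postnatal EC sample carries. Both E16.5 EC samples carry it too and were among the other 7. What part the prefix had was not tested. In the 7 others the AT2 over EC bound for miR-449a-5p was 15.2-fold, and all 13 AT2 samples lay above them. The 3 were set aside for their high values, so this larger bound follows from the choice and is no further support.

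Each of these 3 EC samples shares its title identifier with an AT2 sample. The EC level of miR-449a-5p was 20.0%, 49.9% and 32.5% of that AT2 sample's at P1, P14 and P28, and that of miR-34b-5p was 24.7%, 58.1% and 28.9%. The third, miR-34b-3p, stood at higher fractions, 39.2%, 95.5% and 51.1%. The miR-34b-5p to miR-449a-5p ratio in EC (0.182, 0.832 and 2.29) moved with stage as in AT2. For miR-34c-5p no such fraction can be read, since its counts of 1 or 2 are given as listed and not as a level. In these EC samples miR-34c-5p was listed at 2 counts or fewer at P1, 1 at P14 and 1 at P28. The EC limits are 1.40% of the paired AT2 value at P1 and 1.20% at P28, while the paired AT2 P14 sample also had 1 count. What part epithelial RNA in the EC sorts had in these values was not tested.

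Late minus early in EC called 0 of 6 members by limma and 0 by edgeR. At an unadjusted p under 0.05 limma had 0 members, where 153 of the 302 passed. edgeR had 2 members, without a count over all 302 to set beside it, so that number is not read as a result. Over all 302 tested, 9.27% were called higher and 27.8% lower (28 and 84, but 52 and 23 under the median shift and 47 and 44 under quantile normalization). The fitted differences ran from -1.16 for miR-34c-5p to 1.06 for miR-449a-5p. All EC samples held miR-34c-5p at 1 or 2 counts, so its difference follows the scaling factors and is not read as a change. The F-test over stages in EC called miR-449a-5p (limma adjusted p = 0.0365), where 27.2% of the 302 were called, and miR-449c-5p lay at the threshold (0.05). The miR-449a-5p call was lost without EC P1 replicate 1 (0.222), the only sample of its stage, and without each of 6 other samples (0.0522 to 0.063). miR-449c-5p was in no EC sample above background.

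The late minus early difference was larger in AT2 than in EC for the 3 products of the Mir34b/c locus, against 2.98% of the 302 called in that direction (9 against 10 the other way, and 10 against 7 under the median shift). The excess was 8.97 ± 1.61 (SE) for miR-34c-5p (limma adjusted p = 0.00293), 3.13 ± 0.85 for miR-34b-5p (0.0333) and 2.96 ± 0.73 for miR-34b-3p (0.0253). edgeR called none of them (adjusted p = 0.155, 0.284 and 0.0776). At an unadjusted p under 0.05 limma had 3 members, where 47 of the 302 passed. edgeR had 4 members, without a count over all 302 to set beside it, so that number is not read as a result. With values raised to the highest background limit miR-34b-3p fell to 0.62 and was not called (limma adjusted p = 0.139), and miR-34c-5p fell to 3.34 (0.0193). miR-34b-5p was not called under quantile normalization (0.145), and both miR-34b arms were not called when scaled to the microRNA total (0.104 and 0.1003) or with background subtracted (0.786 and 0.318). The miR-34c-5p call held without each sample in turn. Its excess includes the EC difference of -1.16, which rests on 1 or 2 counts per sample. The miR-34b-3p call was lost without AT2 E16.5 replicate 2, AT2 E18.5 replicate 1, EC E16.5 replicate 1 or EC E18.5 replicate 1, with adjusted p of 0.0526 to 0.116. The miR-34b-5p call was lost without any of 10 samples, with adjusted p of 0.0509 to 0.101: AT2 E16.5 replicate 2, both AT2 E18.5 and both AT2 P7 samples, AT2 P14 replicate 2, EC E16.5 replicate 1, EC E18.5 replicate 1, EC P7 replicate 1 and EC P14 replicate 1. Without the 3 EC samples that held family signal the excess was 4.11 for miR-34b-5p and 3.62 for miR-34b-3p. Those samples were set aside for their values, so the larger excess is no further support.

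The 3 Mir34b/c products had like courses over the 12 group means of log2(value + 1), given as Pearson's r for description only, while the Mir449 pair was less alike. The microRNA most like miR-34c-5p among the 301 others tested was miR-34b-5p (r = 0.86), followed by miR-34b-3p (0.78). For miR-34b-3p the most alike was miR-34b-5p (0.85), with miR-34c-5p next. miR-34b-5p itself was closest to MIMAT0000127 (0.87), with miR-34c-5p at rank 3. miR-449a-5p stood apart from them: its closest was MIMAT0001537 (0.90), miR-449c-5p came 11th of 301 (0.76) and miR-34b-5p 33rd (0.55). miR-34a-5p had r = 0.13 with miR-34b-5p and 0.40 with miR-449a-5p, and its closest member was miR-449c-5p (0.77). For miR-449c-5p, miR-34a-5p came 14th and miR-449a-5p 18th (0.76) of the 301. These means share the cell type difference and the same samples, and miR-449c-5p and miR-34a-5p near background carry the scaled background of each sample with them. The miR-34c-5p means of every EC stage and of AT2 at E16.5 and E18.5 rest on 1 or 2 counts per sample. Its AT2 mean at P14 averages samples at 1.26 and 1592.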

How the data were processed

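Total RNA of 23 sorted samples was read on the nCounter mouse microRNA panel, per the labels' protocols. Of the authors' processing, only a genome build (mm10) is named, in the submitters' processing notes, and their normalization is not given in the sources used here. Deposited values are a signal, the counts times 1 factor per sample: all 13861 values checked came out as whole counts within a tolerance of 0.1, leaving out values set to 1, which 9 columns hold. Tests covered each microRNA with a count over the mean plus 2 SD of 8 low control rows in at least 2 samples (302 of 602). limma 3.58.1 (R 4.3.3, intensity trend) was run on log2(value + 1), with all samples in 1 fit and a mean for each group, two-sided, Benjamini-Hochberg adjusted, at 0.05. A group of 1 sample borrows the spread of the others. edgeR 4.0.16 on recovered counts, other scalings, floors and filters, a block for shared title identifiers, a title prefix covariate and leaving out samples were alternatives. Within-sample ratios used exact permutation tests. Both fits were tested on simulated data. Where the simulation took the deposited scaling as right, few unchanged microRNAs were called. Where it instead held shares of the library level, limma called most unchanged microRNAs for AT2 minus EC and edgeR few, so those limma calls depend on the scaling. No replicates were identical. Members and lists were chosen with earlier results of these data known. All 6 members analysed are named. For each, the other microRNAs most like it over group means were ranked, and those cited are given by identifier.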

Additional observations from a re-analysis of the deposited data

Results flagged for a closer look

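In groups of 4 to 10 samples, 2 of 24 member and group combinations had 1 sample far from the others, where chance flags about 1 in 20. AT2 P14 replicate 1, at a scaled value of 1.26 for miR-34c-5p, stood apart from the 6 other late AT2 samples (892.1 to 2349). AT2 E18.5 replicate 2, at 2.48 for miR-34c-5p, stood apart from the 3 other early AT2 samples, but it holds 1 count like them and differs by its scaling factor.

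The late minus early difference itself differed between AT2 and EC, by limma's test of the difference, for miR-34c-5p (8.97), miR-34b-5p (3.13) and miR-34b-3p (2.96), as log2 values. All 3 calls were lost in edgeR. Those for miR-34b-5p and miR-34b-3p were also lost without any of 10 and 4 single samples, respectively.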

How the results depend on the processing

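Calls of AT2 over EC kept their direction for miR-34b-5p, miR-34b-3p, miR-34c-5p and miR-449a-5p under 12 settings and 23 left-out samples. The late rise of the 3 Mir34b/c products in AT2 did so too, at 2.47 to 4.93 for miR-34b-5p. Leaving out 1 sample at a time gave 5 to 6 members called for AT2 minus EC, 3 to 4 for AT2 late minus early, 0 to 1 for EC late minus early, 1 to 4 for the difference between cell types, 3 to 4 and 0 to 4 for any stage difference in AT2 and EC, and 0 to 3 for neighbouring AT2 stages. The ratio differences then ran from 4.80 to 5.62 (miR-34b-5p to miR-449a-5p), 0.08 to 0.73 (miR-34a-5p to miR-449a-5p) and 4.38 to 4.98 (miR-34b-5p to miR-34a-5p).

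Of 3 members called for the difference between cell types, 1 was left when scaled to the microRNA total, 1 with background subtracted and 0 in edgeR. In AT2, any stage difference gave 1 in place of 3 with background subtracted. In EC it gave 1 in place of 2 under quantile normalization, the microRNA total and a pseudocount of 10, 0 with background subtracted or at the common floor, and 4 in edgeR and with the title prefix. Neighbouring AT2 stages gave 2 in place of 1 under the median shift, without the filter, in edgeR and without the 3 EC samples, and 0 with the title prefix. At the common floor the miR-34a-5p to miR-449a-5p ratio passed (1.02, exact permutation, adjusted p = 0.0212), but miR-34a-5p is level there, so this is the change of miR-449a-5p alone. Late minus early in AT2 turned positive for miR-34a-5p under the median shift (0.25), quantile normalization (0.23) and edgeR (0.0912). It did so for miR-449c-5p under these (0.56, 0.51 and 0.34) and with background subtracted (0.61). None of these was called. In EC the sign of that difference turned under 1 to 6 of 35 settings for 5 members. The cause was not tested. The shared-identifier block (replicate block, correlation 0.231) changed no call. Low counts limit miR-34a-5p and miR-449c-5p, which the common floor (95.1) makes level in all samples, and intervals are widest where a stage has 1 sample.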
